A study of Mus musculus with 12 samples.

Results

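CD antigens are cell surface molecules numbered by the antibodies that recognise them, and sorting by them is how blood and thymus cells are told apart. The genes described here are the rows of the deposited expression table whose symbol is Cd followed by a number and at most a letter and a digit. This rule was met by 57 of the 13016 genes in the table, and 9 further symbols of the same pattern were left out by it. A gene qualified by its symbol and not by a measured value, although the rule itself was set with earlier results of these data known. Messenger RNA was measured in 12 libraries of 100 sorted C57BL/6 mouse early thymic progenitors each, so the values are transcript levels, and protein at the cell surface was not measured.

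These progenitors come to the thymus from the bone marrow, start the T-cell lineage there and keep some potential for other blood lineages. On such cells the adhesion antigen CD44 is typically high, while CD4 and CD8 are low or absent. Tetraspanins are small membrane proteins that organise other receptors, and receptors such as CD200R1 and CD160 pass activating or inhibitory signals into the cell.

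There were 3 groups of 4 libraries. The dKO_Flt3ITD cells were Ezh2 fl/fl, Runx1 fl/fl and Rag1Cre+ and carried Flt3 ITD/+, an internal tandem duplication in 1 allele of a cytokine receptor. The dKO cells were Ezh2 fl/fl, Runx1 fl/fl and Rag1Cre+. The control cells were Ezh2 fl/fl and Runx1 fl/fl without Cre, so all groups shared the floxed alleles. Ezh2 encodes a histone methyltransferase, Runx1 a transcription factor, and the Cre recombinase is driven by Rag1, itself a gene of lymphoid cells. Age, sex and the sorting gate were not given in the sources used here, and the labels do not state that each library is a different mouse. The spread between replicates, and each p-value built on it, may therefore be technical.

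The whole reads behind the values totalled 13623436 to 33985972 per library. Ezh2 stood at 16.4 ± 5.59 RPKM in dKO_Flt3ITD, 22.6 ± 5.87 in dKO and 39.8 ± 5.83 in control (SD, n = 4 each). Runx1 stood at 47.5 ± 11.8 RPKM in dKO_Flt3ITD, 46.4 ± 11.1 in dKO and 21.2 ± 4.57 in control. A value over the whole gene does not check the deletion. All 11 listed markers of early thymic progenitors were in the table, and their summed level was 345 to 504 RPKM in dKO_Flt3ITD, 466 to 538 in dKO and 494 to 612 in control. Among them Tcf7, a transcription factor gene of T-cell specification, ranged from 0 to 0.814 RPKM in dKO_Flt3ITD, 0 to 0.0535 in dKO and 4.08 to 42.4 in control. The list was mixed. Flt3 averaged 33.2 RPKM in dKO_Flt3ITD, 29.1 in dKO and 78.3 in control, and Ptprc, Kit, Notch1 and Mef2c also had their highest mean in control. Lyl1 averaged 66.4 RPKM in dKO_Flt3ITD, 44.0 in dKO and 35.0 in control, and Hes1 and Gata3 also had their lowest mean in control. Library dKO_Flt3ITD 4 stood apart, with Notch1 at 2.10 and Hes1 at 6.87 RPKM, where the other 11 libraries had at least 21.3 and 32.4 RPKM. The same library had the highest sum of granulocyte and monocyte markers, 1446 RPKM, followed by dKO_Flt3ITD 1 with 679. In bulk libraries, fewer cells of a type and less RNA per cell cannot be told apart.

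A few CD genes were far more abundant than the rest in every group. RPKM is scaled to transcript length and library size, so levels can be set beside each other between genes. Mean levels reached 10 RPKM for 26 of the 57 genes in dKO_Flt3ITD, 26 in dKO and 24 in control, and 100 RPKM for 7 in dKO_Flt3ITD, 10 in dKO and 8 in control. Cd48, a ligand of the SLAM receptor family found on nearly all blood cells, was highest in each group. It made up 40.9% of the summed level of all 57 genes in dKO_Flt3ITD, 47.1% in dKO and 33.6% in control. Next came Cd52, Cd53, Cd81, Cd47, Cd37 and Cd27, in an order that differed between groups. These genes encode a lymphocyte glycoprotein, 3 of the tetraspanins (Cd53, Cd81 and Cd37), a signal that protects cells from phagocytosis and a costimulatory receptor of the tumour necrosis factor receptor family.

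**Figure D1:**
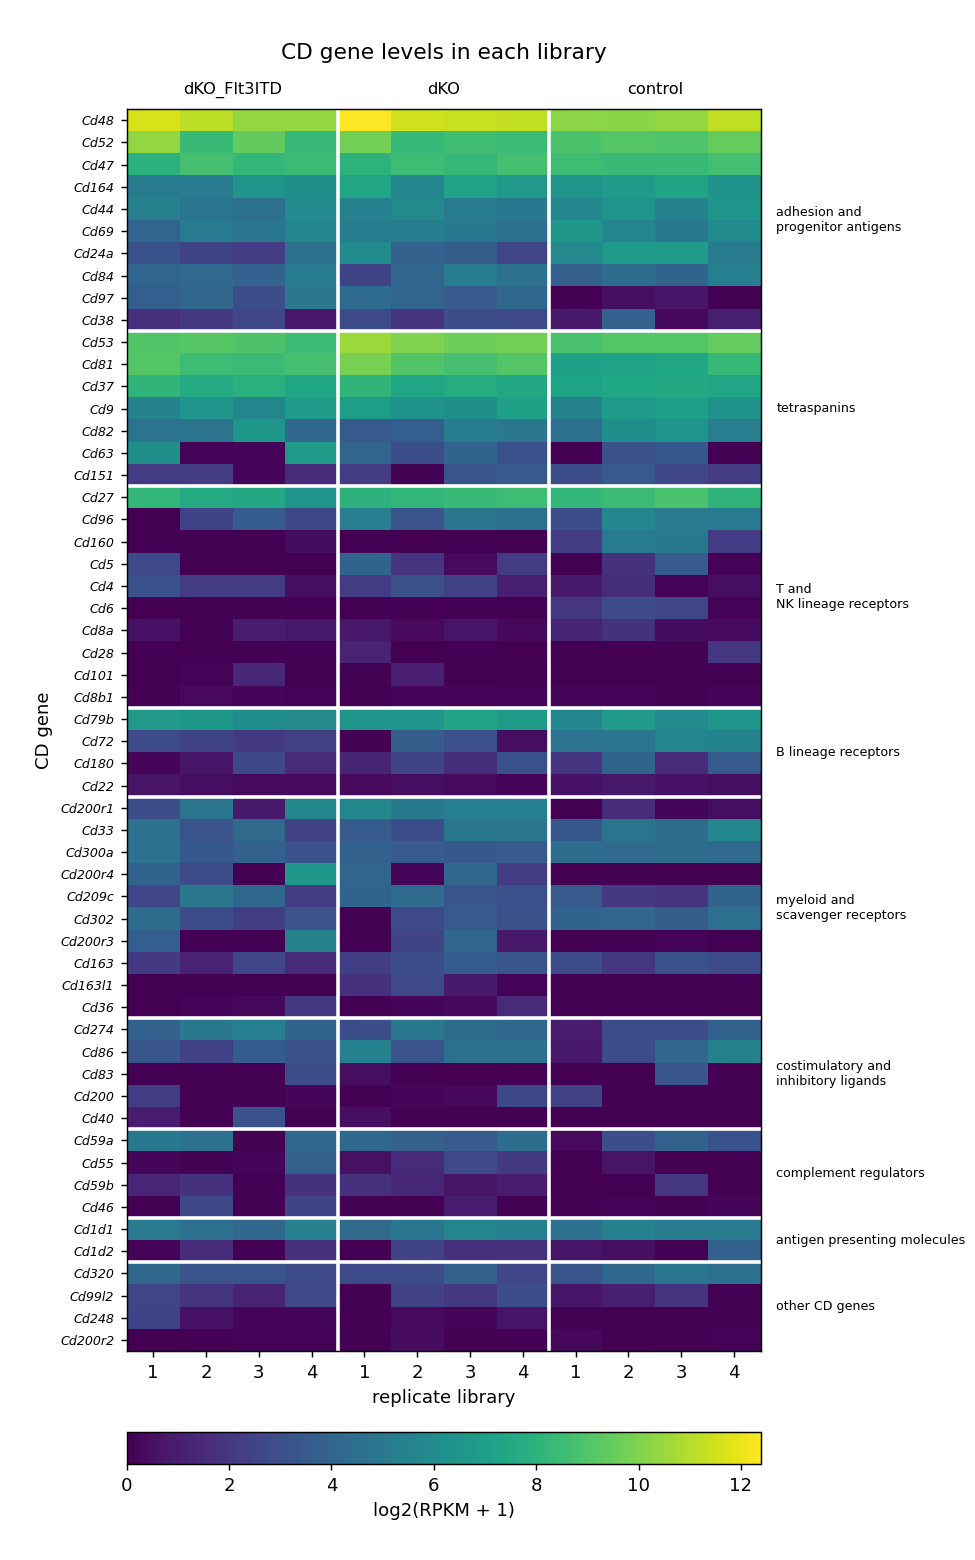
Level of all but 1 of the 57 CD genes in each of 12 libraries, as log2(RPKM + 1) on the colour scale, with genes in rows ordered by role and libraries in columns by group and replicate number. Cd48 is the brightest row in every group, Cd97 and the Cd200r1 and Cd200r4 rows are dark in control, and Cd160 is dark in both mutant groups.

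Between 1 group and another the CD genes were tested in a fit across all genes, with 42 of the 57 above the filter of at least 1 RPKM in at least 4 libraries. In dKO_Flt3ITD against control 3 of these passed limma at an adjusted p of 0.05, with Cd97 higher and Cd160 and Cd24a lower. The same test called 1.50% of all 10690 tested genes, 0.992% higher and 0.505% lower. In dKO against control 5 passed, with Cd97, Cd200r1 and Cd81 higher and Cd160 and Cd72 lower, beside 1.02% of all tested genes, 0.786% higher and 0.234% lower. In dKO_Flt3ITD against dKO 0 CD genes passed limma, beside 0.00% of all tested genes, and 0 passed voom. An unadjusted p under 0.05 was seen for 13, 15 and 6 CD genes in the 3 comparisons in this order, beside 13.4%, 9.18% and 7.71% of all tested genes. Both comparisons with control use the same 4 control libraries, so they are not independent of each other.

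These calls are limited by the spread between libraries. Voom on whole reads recovered from the RPKM values called 0 CD genes in any comparison, beside 0.253% of all tested genes in dKO_Flt3ITD against control, 0.0468% in dKO against control and 0.00% in dKO_Flt3ITD against dKO. Without dKO_Flt3ITD 4 alone the same 3 CD genes passed in dKO_Flt3ITD against control. With libraries dKO_Flt3ITD 1 and 4 left out together, a choice made after their granulocyte markers were seen, Cd24a and Cd97 passed in dKO_Flt3ITD against control and Cd160 had an adjusted p of 0.0512 in limma.

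Over all 57 members, tested or not, the median log2 difference was −0.11 in dKO_Flt3ITD against control, 0.16 in dKO against control and −0.10 in dKO_Flt3ITD against dKO. Over all 13016 genes these medians were 0.0045, −0.0011 and 0.011. The median size of the difference, whatever its sign, was 0.84, 0.70 and 0.46 log2 units for the CD genes. Over all genes it was 0.41, 0.34 and 0.36. Among the tested CD genes 17 differences were positive and 25 negative in the first comparison, 23 and 19 in the second, and 14 and 28 in the third. Over all tested genes the median log2 difference was 0.0021, 0.0096 and 0.0042 in the same order.

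**Figure D2:**
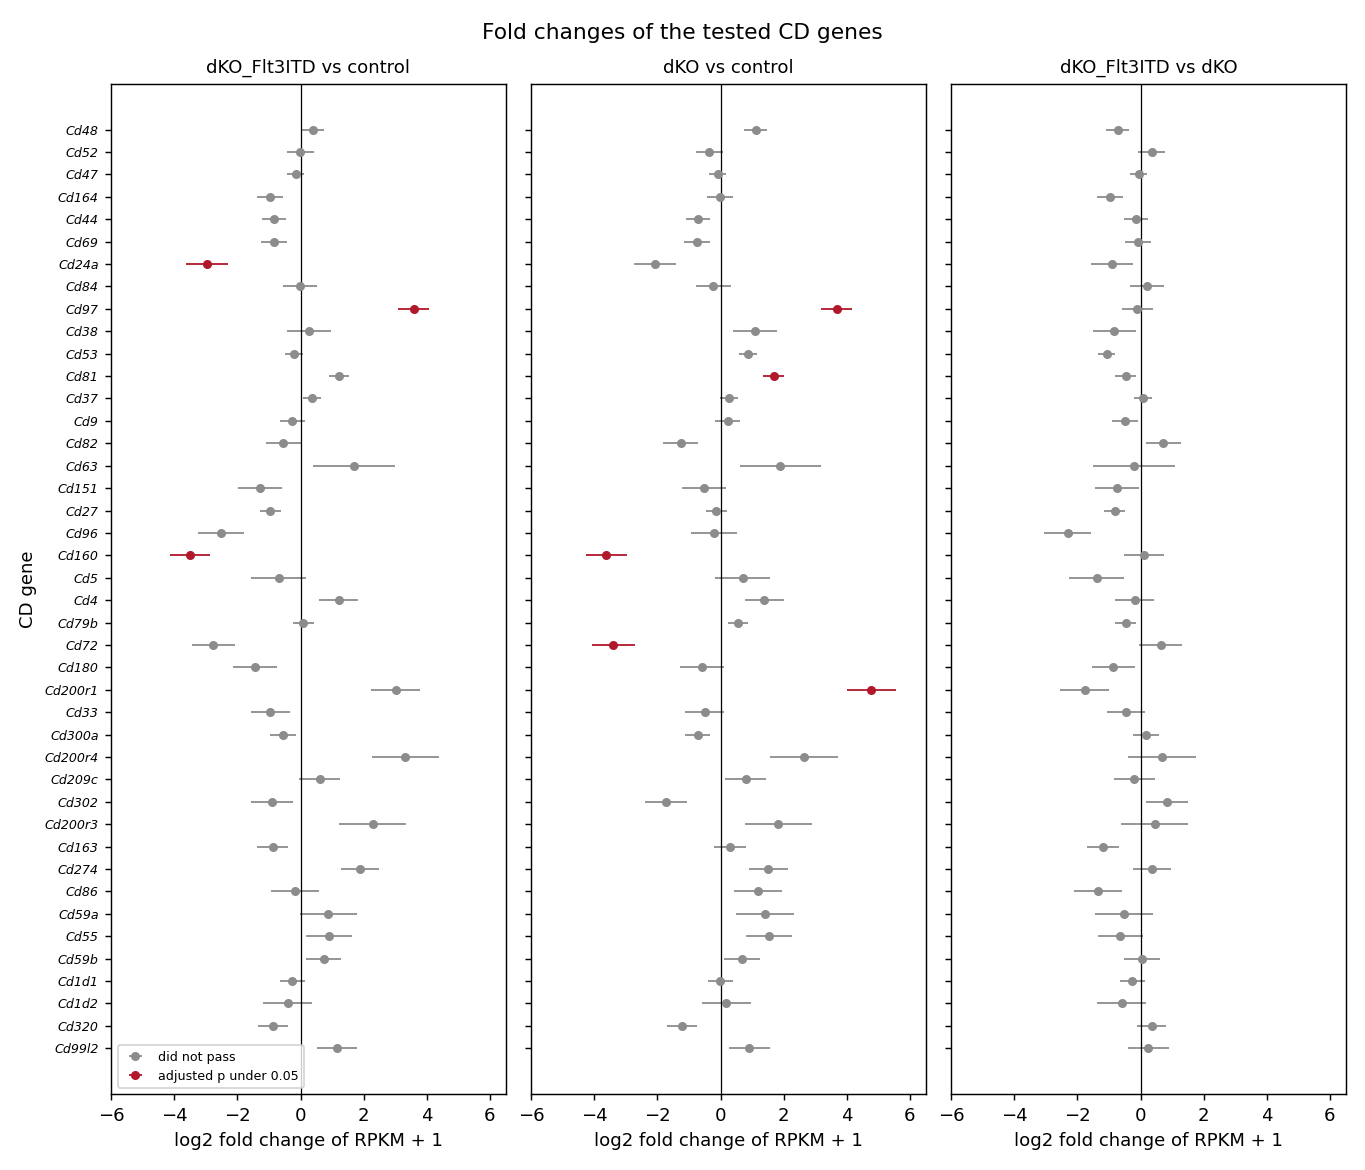
Log2 fold change of RPKM + 1 on the x axis for each of the 42 tested CD genes on the y axis, 1 panel per comparison, with bars of 1 standard error and red points for an adjusted p under 0.05 in limma. Cd97 and Cd160 are red in both comparisons with control, and no point is red in dKO_Flt3ITD against dKO.

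Among the 10 adhesion and progenitor antigens, all tested, Cd97 and Cd24a passed. Cd97 encodes an adhesion G protein-coupled receptor that binds CD55, and is annotated under its newer symbol Adgre5 on chromosome 8, 83723251 to 83741326, minus strand (GRCm38). It had 12.1, 16.2, 6.70 and 29.4 RPKM in dKO_Flt3ITD, 19.4, 15.2, 10.9 and 16.4 RPKM in dKO, and 0, 0.416, 0.690 and 0.0319 RPKM in control. All 8 mutant libraries lay well above all 4 controls, and the mutant groups overlapped each other. The difference from control was 3.59 ± 0.49 (SE) log2 units in dKO_Flt3ITD, with a limma adjusted p of 0.000748, and 3.69 ± 0.49 in dKO, with 0.000728. Cd97 passed the filter through its mutant values alone, since no control reached 1 RPKM, and kept its call in each fit without 1 library. Its size depends on the value added before the logarithm, and was 2.11 in dKO_Flt3ITD and 2.17 in dKO with 4 added, 4.96 and 5.07 with 0.25 added, and 7.18 and 7.32 in voom. In voom its adjusted p was 0.0974 in dKO_Flt3ITD and 0.139 in dKO. Its annotated span overlaps 3642 bases of Ddx39 on the opposite strand. Ddx39 ranged from 80.5 to 151 RPKM in dKO_Flt3ITD, 45.5 to 115 in dKO and 44.7 to 133 in control, and whether counting used strand is not given in the sources used here.

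Cd24a encodes the heat-stable antigen, a small glycoprotein whose level is used to stage thymocytes and B-cell precursors (chromosome 10, 43578284 to 43584265, plus strand). It had 7.58, 4.84, 3.57 and 24.7 RPKM in dKO_Flt3ITD, 61.8, 13.9, 11.4 and 5.0 RPKM in dKO, and 56.4, 99.3, 114 and 33.2 RPKM in control. All dKO_Flt3ITD libraries lay below all controls, while library dKO 1 lay among the controls. Cd24a fell by 2.98 log2 units in dKO_Flt3ITD (SE 0.66, limma adjusted p = 0.0327). The call was close to the threshold. It was lost without any of dKO_Flt3ITD 1, 2 or 3 or control 1, 2 or 3, with adjusted p between 0.0646 and 0.0977, and in voom, with 0.0874. In dKO the log2 difference was −2.09 with a limma adjusted p of 0.207, and the difference between the mutant groups, −0.89, had 0.809.

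The other 8 adhesion and progenitor genes did not pass in any comparison. Cd48 had 3215, 2298, 1336 and 1313 RPKM in dKO_Flt3ITD, 5335, 2889, 2622 and 2428 RPKM in dKO, and 1183, 1175, 1343 and 2377 RPKM in control. All dKO libraries lay above all controls, by a margin that was narrow for control 4. The log2 difference was 1.12 ± 0.36 (SE) in dKO against control, with a limma adjusted p of 0.216. Cd44, the hyaluronan receptor that marks the earliest thymocytes, had 41.3, 26.9, 22.8 and 62.6 RPKM in dKO_Flt3ITD, 43.1, 56.2, 32.1 and 30.9 RPKM in dKO, and 52.5, 82.7, 44.7 and 89.6 RPKM in control. The groups overlapped, and the limma adjusted p against control was 0.344 in dKO_Flt3ITD and 0.653 in dKO. The means of Cd47 were close together, at 325 ± 77.1 RPKM in dKO_Flt3ITD, 339 ± 74.7 in dKO and 356 ± 40.8 in control. Cd52 averaged 663 ± 485 RPKM in dKO_Flt3ITD, 472 ± 258 in dKO and 559 ± 107 in control, and its spread within the mutant groups exceeded the differences between means. Cd164, a sialomucin of progenitors, averaged 56.2 ± 25.3 RPKM in dKO_Flt3ITD, 112 ± 47.8 in dKO and 107 ± 32.4 in control, and its adjusted p in dKO_Flt3ITD against dKO was 0.593 in limma. Cd69, an early activation antigen, averaged 31.8 ± 14.2 RPKM in dKO_Flt3ITD, 31.5 ± 5.64 in dKO and 57.3 ± 25.8 in control. Cd84, another SLAM family gene, averaged 20.4 ± 9.37 RPKM in dKO_Flt3ITD, 20.6 ± 13.8 in dKO and 21.6 ± 12.2 in control. Cd38, the gene of an enzyme that consumes NAD, had 2.23, 3.21, 5.25 and 0.729 RPKM in dKO_Flt3ITD, 6.32, 2.70, 6.72 and 5.97 RPKM in dKO, and 0.825, 14.1, 0.214 and 1.13 RPKM in control. Control 2 had the highest value of Cd38 and the other 3 controls lay below all dKO libraries.

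**Figure D3:**
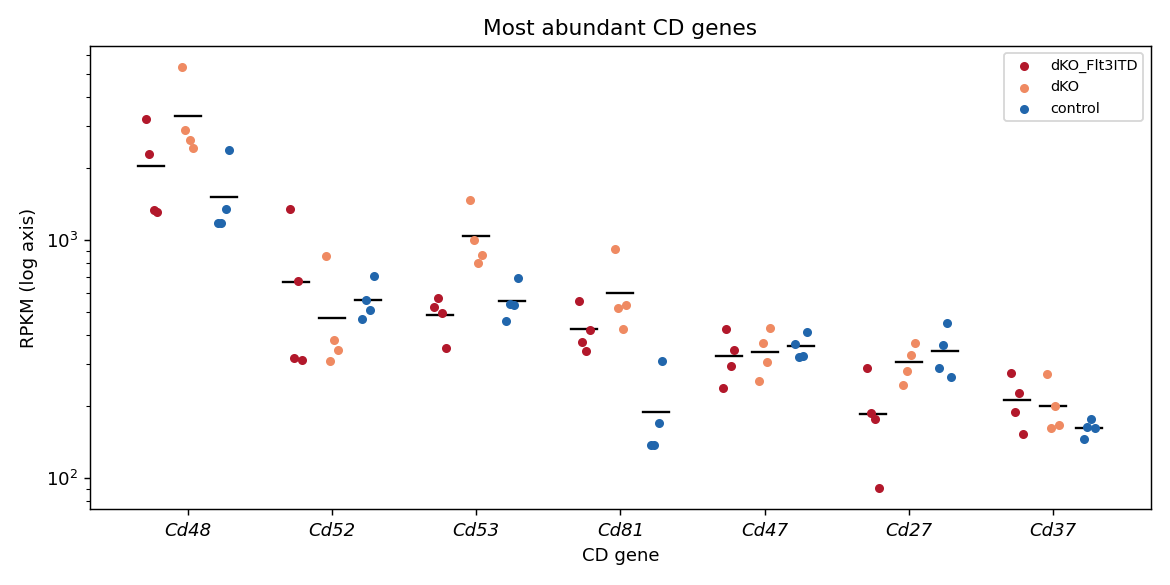
Level in RPKM on a log axis of the 7 most abundant CD genes, with 1 point per library and a bar at the group mean. Cd81 is the gene whose control points sit lowest against both mutant groups, and the dKO points of Cd53 sit above those of dKO_Flt3ITD and control.

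All 7 tetraspanin genes were tested, and Cd81 was the one that passed. Cd81 encodes a widely expressed tetraspanin found in a coreceptor complex of B cells (chromosome 7, 143052739 to 143067934, plus strand). It had 554, 372, 341 and 418 RPKM in dKO_Flt3ITD, 918, 518, 423 and 535 RPKM in dKO, and 137, 137, 170 and 309 RPKM in control. Every mutant library lay above every control. Cd81 was the fourth CD gene by mean level in dKO_Flt3ITD and the third in dKO, but the sixth in control. It rose by 1.69 ± 0.33 (SE) log2 units in dKO, with a limma adjusted p of 0.0160. That call was lost without control 2 (adjusted p = 0.0588) or dKO 1 (0.0556), and in voom (0.0526). In dKO_Flt3ITD the log2 difference of 1.22 had a limma adjusted p of 0.0791, which became 0.0412 without control 4. That was the 1 setting of 20 alternatives in which Cd81 passed there.

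Cd53, a tetraspanin of leukocytes, had 524, 571, 492 and 352 RPKM in dKO_Flt3ITD, 1475, 1004, 802 and 867 RPKM in dKO, and 457, 540, 532 and 692 RPKM in control. The dKO libraries lay above those of both other groups, and dKO_Flt3ITD and control overlapped. The log2 difference of dKO_Flt3ITD from dKO was −1.08 ± 0.28 (SE), with a limma adjusted p of 0.261, and that of dKO from control 0.87 ± 0.28, with 0.205. Cd53 was the 1 tested CD gene whose mutant groups did not overlap, beside 4.28% of all tested genes, 2.08% higher and 2.20% lower. Cd37, another leukocyte tetraspanin, averaged 211 ± 52.8 RPKM in dKO_Flt3ITD, 200 ± 51.4 in dKO and 162 ± 13 in control. Cd9, known for roles in cell fusion and adhesion, averaged 74.1 ± 31.6 RPKM in dKO_Flt3ITD, 102 ± 31.5 in dKO and 90.0 ± 36.9 in control. Cd82 averaged 40.6 ± 36.1 RPKM in dKO_Flt3ITD, 21.7 ± 12.3 in dKO and 53.6 ± 28.5 in control. Cd151, a partner of laminin-binding integrins, averaged 2.28 ± 1.63 RPKM in dKO_Flt3ITD, 5.76 ± 4.88 in dKO and 6.36 ± 2.72 in control.

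Cd63, a tetraspanin of lysosomes and secretory granules, varied widely within groups. It had 70.3, 0.104, 0.157 and 106 RPKM in dKO_Flt3ITD, 15.7, 6.74, 14.1 and 7.80 RPKM in dKO, and 0, 7.29, 9.78 and 0 RPKM in control. Its 2 highest values were in dKO_Flt3ITD 1 and 4. Those libraries also led in summed granulocyte and monocyte markers, which ranged from 120 to 1446 RPKM in dKO_Flt3ITD, 142 to 327 in dKO and 122 to 408 in control. Of the 11 genes of that marker list 8 were in the table. Of 7 tested, 1 was called higher in dKO_Flt3ITD against control, beside 0.992% of all tested genes. Ctsg had 184, 42.6, 15.3 and 218 RPKM in dKO_Flt3ITD and 0.442 to 13.7 RPKM in control, so every dKO_Flt3ITD library lay above every control. Elane had 8.78, 0.117, 0.0440 and 105 RPKM in dKO_Flt3ITD and was listed at 0 in all 4 controls. Mpo had 56.5, 7.71, 12.9 and 721 RPKM in dKO_Flt3ITD, and 66.0 to 230 RPKM in control. The mean of Itgam was higher in control, at 2.95 RPKM, than in dKO_Flt3ITD, at 1.14 RPKM. The part of these markers in the Cd63 values was not tested.

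Of 10 receptors of T and NK cells 5 were tested, and Cd160 passed in both comparisons with control. Cd160 encodes a glycolipid-anchored receptor of NK cells and some T cells that binds the herpesvirus entry mediator (chromosome 3, 96798763 to 96829351, minus strand). It was listed at 0 in dKO_Flt3ITD 1, 2 and 3 and at 0.327 RPKM in dKO_Flt3ITD 4, at 0 in all 4 dKO libraries, and at 3.52, 33.8, 30.9 and 3.54 RPKM in control. The groups did not overlap, and control itself split into a high and a low pair. Cd160 passed the filter through its control values alone, and kept its call in each fit without 1 library. On the log2(RPKM + 1) scale it fell by 3.52 in dKO_Flt3ITD (limma adjusted p = 0.00705) and by 3.62 in dKO (0.00739), with SE 0.64 in both. The size depends on the value added before the logarithm, and was −2.05 in dKO with 4 added and −5.47 with 0.25 added. In voom the adjusted p was 0.117 and 0.146.

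Of 9 NK and innate lymphoid markers 4 were in the table, and none of the 2 tested was called. Their sum ranged from 232 to 1482 RPKM in dKO_Flt3ITD, 561 to 1841 in dKO and 796 to 1697 in control, nearly all of it Nkg7. Eomes did not exceed 0.0884 RPKM in any library. Klrd1 had 41.4, 0, 21.5 and 7.75 RPKM in dKO_Flt3ITD, 0, 1.97, 12.2 and 2.85 RPKM in dKO, and 15.9, 31.0, 26.1 and 70.5 RPKM in control. Every dKO library lay below every control for Klrd1, while dKO_Flt3ITD overlapped control. The part of these markers in the Cd160 values was not tested.

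Promoter sequence is shown for the called genes that the RefSeq promoter table (GRCm38.p6) holds, Cd160, Cd72 and Cd81, because the design deletes Runx1 and a short motif of RUNX proteins can be searched. Each window is the 250 bases before an annotated start, read 5′ to 3′ on the gene's strand. Capitals mark TGTGGT or TGCGGT, or their reverse complements ACCACA or ACCGCA. The windows lie at chr3:96814522-96814771 (−) and chr3:96829352-96829601 (−) for the 2 Cd160 starts, chr4:43454627-43454876 (−) for Cd72 and chr7:143052500-143052749 (+) for Cd81.
Cd160 start 1: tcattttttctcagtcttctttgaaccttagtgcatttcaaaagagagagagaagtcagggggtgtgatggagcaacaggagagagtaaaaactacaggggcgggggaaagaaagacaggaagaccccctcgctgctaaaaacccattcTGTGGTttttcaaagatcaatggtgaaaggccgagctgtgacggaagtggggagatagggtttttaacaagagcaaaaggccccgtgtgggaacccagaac
Cd160 start 2: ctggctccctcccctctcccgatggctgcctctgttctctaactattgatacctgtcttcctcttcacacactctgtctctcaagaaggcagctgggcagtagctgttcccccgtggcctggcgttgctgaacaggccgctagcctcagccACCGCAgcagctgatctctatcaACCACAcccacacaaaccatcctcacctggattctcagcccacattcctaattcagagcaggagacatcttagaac
Cd72: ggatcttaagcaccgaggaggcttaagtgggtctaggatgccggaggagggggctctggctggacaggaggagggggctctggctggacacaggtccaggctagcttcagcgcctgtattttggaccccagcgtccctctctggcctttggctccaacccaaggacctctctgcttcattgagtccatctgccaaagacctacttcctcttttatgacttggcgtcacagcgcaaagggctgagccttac
Cd81: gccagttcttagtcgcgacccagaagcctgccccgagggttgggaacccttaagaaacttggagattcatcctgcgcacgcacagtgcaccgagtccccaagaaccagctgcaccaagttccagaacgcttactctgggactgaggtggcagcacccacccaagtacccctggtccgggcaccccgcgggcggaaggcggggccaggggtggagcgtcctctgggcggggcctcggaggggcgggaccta

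The first Cd160 window holds TGTGGT with its first base 101 bases before the start, and the second holds ACCGCA 99 and ACCACA 76 bases before it. The Cd72 and Cd81 windows hold neither motif. TGTGGT, on either strand, was found in 14.0% of all 32851 mouse promoter windows and in 12 of 48 windows of the CD genes, and either motif in 18.6% of all windows and 14 of 48. A match is a description of the letters and not of binding, and Cd97, Cd200r1 and Cd24a are named only.

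**Figure D4:**
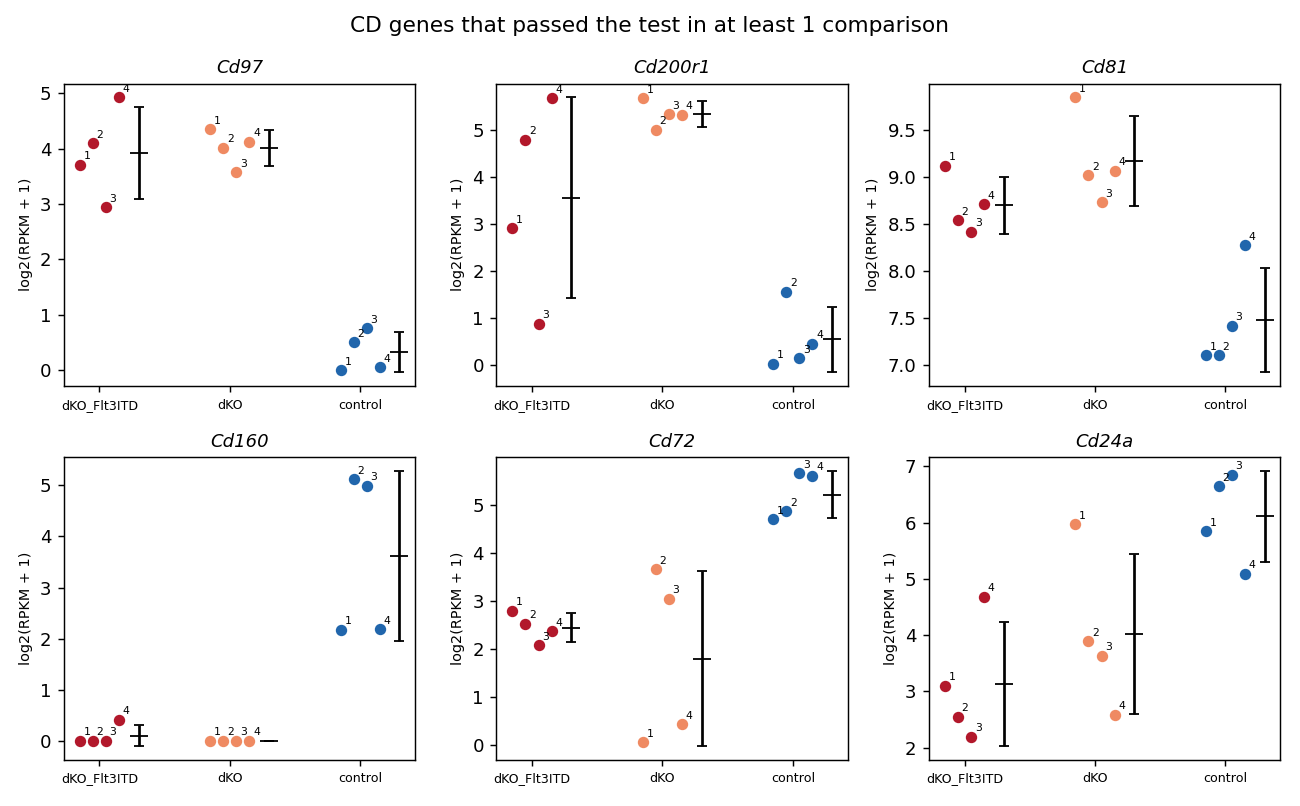
Level as log2(RPKM + 1) on the y axis of the 6 CD genes called in at least 1 comparison, with 1 numbered point per library by group and a bar for the mean ± SD of 4 libraries. Cd97 and Cd81 are higher in every mutant library than in every control, Cd160 and Cd72 are lower, Cd200r1 overlaps control in dKO_Flt3ITD 3, and Cd24a overlaps control in dKO 1.

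The other T and NK receptors did not pass. Cd27, the costimulatory receptor whose ligand is CD70, had 290, 187, 176 and 90.4 RPKM in dKO_Flt3ITD, 245, 281, 329 and 369 RPKM in dKO, and 289, 361, 449 and 266 RPKM in control. Library dKO_Flt3ITD 1 overlapped both other groups, and the remaining 3 lay below them. For dKO_Flt3ITD the limma adjusted p was 0.198 against control and 0.582 against dKO. When each library was scaled to the same summed RPKM, Cd27 was called lower in dKO_Flt3ITD against control, with all tested genes centred on a median log2 difference of −0.20. Cd96, a receptor for nectin-like molecules on T and NK cells, had 0, 4.62, 11.2 and 5.46 RPKM in dKO_Flt3ITD, 38.7, 8.46, 29.5 and 22.7 RPKM in dKO, and 6.70, 54.5, 31.9 and 32.1 RPKM in control. The groups overlapped, and the limma adjusted p was 0.113 against control and 0.401 against dKO.

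Cd4 and the CD8 genes were low. Cd4, the coreceptor for MHC class II, had 7.76, 3.59, 3.48 and 0.359 RPKM in dKO_Flt3ITD, 3.42, 7.44, 4.28 and 1.02 RPKM in dKO, and 0.846, 2.12, 0.0777 and 0.358 RPKM in control. Most mutant libraries were higher than the controls but the groups overlapped, and the limma adjusted p against control was 0.408 in dKO_Flt3ITD and 0.493 in dKO. Cd8a, a chain of the coreceptor for MHC class I, averaged 0.563 ± 0.371 RPKM in dKO_Flt3ITD, 0.454 ± 0.266 in dKO and 1.15 ± 1.08 in control and was not tested. Its partner chain gene Cd8b1 did not exceed 0.227 RPKM in any library. These 3 genes belong to a list of 12 later thymocyte markers, of which 9 were in the table and none of the 6 tested was called. The sum of the 9 was 17.2 to 95.2 RPKM in dKO_Flt3ITD, 105 to 163 in dKO and 35.3 to 63.7 in control, so that dKO did not overlap control. Most of it came from other genes of the list. Rag2, needed for antigen receptor rearrangement, averaged 27.8 ± 21.4 RPKM in dKO_Flt3ITD, 84.2 ± 34.8 in dKO and 12.4 ± 7.5 in control. Il2ra, the gene of CD25, averaged 16.5 ± 16.6 RPKM in dKO_Flt3ITD, 27.4 ± 19.6 in dKO and 11.2 ± 10.3 in control. The means of Cd3d, Cd3g, Ptcra and Cd8a were instead highest in control. Cd5, an inhibitor of antigen receptor signalling, ranged from 0 to 5.66 RPKM in dKO_Flt3ITD, 0.240 to 15 in dKO and 0.0356 to 10.8 in control. Cd28 and Cd101 reached 1 RPKM in few libraries and were not tested. Cd6, a relative of Cd5, was also below the filter. It was chosen after its values were seen. It was listed at 0 in all 4 dKO_Flt3ITD libraries, stood at 0.0117 to 0.0216 RPKM in dKO, and had 2.88, 6.09, 5.02 and 0.0913 RPKM in control. Its groups did not overlap, and without the filter its limma adjusted p was 0.0909 in dKO_Flt3ITD and 0.119 in dKO.

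Of 5 B-lineage genes 3 were tested, and Cd72 passed in dKO against control. Cd72 encodes an inhibitory coreceptor of B cells (chromosome 4, 43446462 to 43454628, minus strand). It had 5.96, 4.75, 3.23 and 4.17 RPKM in dKO_Flt3ITD, 0.0398, 11.7, 7.26 and 0.357 RPKM in dKO, and 25, 28.2, 49.3 and 47.6 RPKM in control. Every mutant library lay below every control, with dKO the more variable of the mutant groups. The annotated span of Cd72 overlaps 1603 bases of Tesk1 on the opposite strand. Tesk1 reached at most 4.30 RPKM in dKO_Flt3ITD, 7.82 in dKO and 3.83 in control. Cd72 fell by 3.40 log2 units in dKO (SE 0.68, limma adjusted p = 0.0182). That call was lost without control 3 (adjusted p = 0.0650), control 4 (0.0594), dKO 1 (0.0585) or dKO 4 (0.0757), and in voom (0.157). In dKO_Flt3ITD the log2 difference of −2.76 had an adjusted p of 0.0548 in limma. It passed under 5 of 20 other settings, among them both rescalings and the fit on the 8 compared libraries alone (0.00620). Of the 8 fits without 1 library it passed in 0, with a limma adjusted p of up to 0.142.

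The other B-lineage genes gave a mixed picture. Cd79b, a signalling chain of the B-cell receptor, averaged 78.9 ± 23.1 RPKM in dKO_Flt3ITD, 109 ± 29.8 in dKO and 74.3 ± 21.7 in control (SD, n = 4), with overlapping groups. Cd180, a Toll-like receptor relative, averaged 2.04 ± 2.43 RPKM in dKO_Flt3ITD, 3.99 ± 2.82 in dKO and 7.52 ± 6.38 in control. Cd22, a sialic acid-binding inhibitor of B-cell signalling, did not exceed 0.721 RPKM. Of 9 B-cell markers 4 were in the table and their sum was 55.5 to 105 RPKM in dKO_Flt3ITD, 87.8 to 151 in dKO and 59.6 to 98.2 in control. Cd79b gave nearly all of that sum, and the part of B cells in the Cd72 values was not tested.

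Of 10 myeloid and scavenger receptor genes 8 were tested, and Cd200r1 passed in dKO against control. Cd200r1 encodes an inhibitory receptor for CD200 on myeloid cells and some lymphocytes (chromosome 16, 44765736 to 44794978, plus strand). It had 6.49, 26.6, 0.835 and 49.8 RPKM in dKO_Flt3ITD, 50.1, 31.0, 39.1 and 39.0 RPKM in dKO, and 0.0195, 1.94, 0.106 and 0.366 RPKM in control. The dKO libraries were tightly grouped above all controls, while dKO_Flt3ITD spread widely and its library 3 fell below control 2. Only control 2 reached 1 RPKM among the controls, so the gene passed the filter mainly through its mutant values. Cd200r1 rose by 4.79 ± 0.77 (SE) log2 units in dKO, with a limma adjusted p of 0.00350, and kept that call in each fit without 1 library. It was lost without the libraries numbered 1 of all 3 groups (adjusted p = 0.0727) and in voom (0.238), which gave a log2 difference of 7.43. In dKO_Flt3ITD the log2 difference of 3.01 had a limma adjusted p of 0.0653, and 0.00327 without dKO_Flt3ITD 3. That was the 1 setting of 20 alternatives in which it passed, and voom gave an adjusted p of 0.301. The mutant groups differed by −1.77, with an adjusted p of 0.612.

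Genes related to Cd200r1 lie beside it. Cd200r1, Cd200r4, Cd200r2, Cd200r3 and Cd200, the ligand gene, span chromosome 16 from 44765736 to 45409053, with gaps under 500000 bases. The receptor genes are similar in sequence, and how the authors' counting divided reads between them is not given in the sources used here, so their separate levels are uncertain. Cd200r4, an activating relative, had 14.6, 6.12, 0 and 96.1 RPKM in dKO_Flt3ITD, 15.7, 0.154, 17.0 and 3.76 RPKM in dKO, and 0, 0.0590, 0.0236 and 0 RPKM in control. All dKO libraries exceeded all controls, and dKO_Flt3ITD 3 did not. Cd200r4 passed the filter through its mutant values alone. The limma adjusted p was 0.159 in dKO_Flt3ITD and 0.415 in dKO. Cd200r3 had 12, 0, 0.0183 and 45.1 RPKM in dKO_Flt3ITD, 0, 4.88, 15.7 and 0.803 RPKM in dKO, and at most 0.0726 RPKM in control. Cd200r2 did not exceed 0.338 RPKM in any library, and Cd200 itself stood high in 1 library of each group, at 3.77 RPKM in dKO_Flt3ITD 1, 5.47 in dKO 4 and 4.37 in control 1, and did not exceed 0.196 RPKM in the others.

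Markers of myeloid cells were read beside the Cd200r genes. The granulocyte and monocyte sums given above were highest in dKO_Flt3ITD 4 and dKO_Flt3ITD 1, where Cd200r3 and Cd200r4 were highest within that group. In dKO these sums overlapped those of control, where most of the sum came from Mpo and Lyz2, with means of 146 and 130 RPKM. Cd200r1 was high in all 4 dKO libraries. Of 7 mast cell and basophil markers 3 were in the table, none was called, and their sum was 195 to 569 RPKM in dKO_Flt3ITD, 118 to 324 in dKO and 16.7 to 127 in control, most of it Cpa3. That sum was highest in dKO_Flt3ITD 3, the library of that group with the lowest Cd200r1 and with Cd200r4 listed at 0. The other markers of that list, Gata2 and Mcpt8, ran differently from Cpa3. Within dKO_Flt3ITD they were lowest in library 3, at 3.20 and 0 RPKM, and highest in library 4, at 45.6 and 12.3 RPKM. Of 11 macrophage markers 9 were in the table and 2 were called higher in dKO_Flt3ITD, with sums of 50.4 to 156 RPKM in dKO_Flt3ITD, 47.8 to 141 in dKO and 19.2 to 66.8 in control. The part of these markers in the Cd200r values was not tested.

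**Figure D5:**
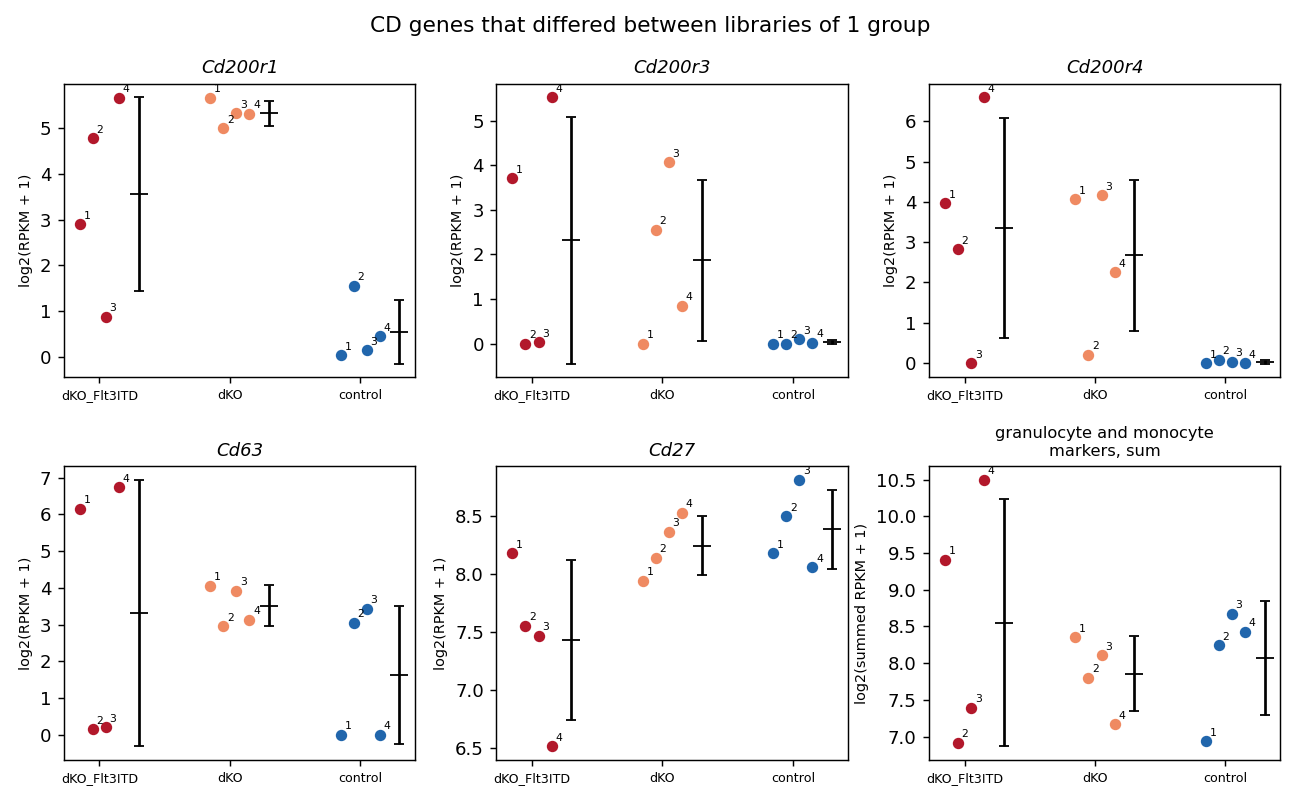
Level as log2(RPKM + 1) on the y axis of 5 CD genes that varied between libraries, and in the last panel the log2 of the summed RPKM of 8 granulocyte and monocyte markers, with 1 numbered point per library and bars for the mean ± SD of 4 libraries. Cd63, Cd200r3 and Cd200r4 are highest in dKO_Flt3ITD 4, which also has the highest marker sum, 1446 RPKM, and the lowest Cd27, 90.4 RPKM.

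The remaining myeloid and scavenger genes did not pass. Cd300a, an inhibitory receptor, had 23.8, 9.5, 13.8 and 7.55 RPKM in dKO_Flt3ITD, 13.2, 10.9, 9.5 and 10.6 RPKM in dKO, and 19.5, 18.1, 19.96 and 17.8 RPKM in control. The dKO libraries lay below a tight set of controls, with a limma adjusted p of 0.663. Cd302, a C-type lectin receptor, had 19.5, 6.49, 3.77 and 7.90 RPKM in dKO_Flt3ITD, 0.0476, 5.64, 10.1 and 7.30 RPKM in dKO, and 15, 16, 11.5 and 22.1 RPKM in control. All dKO libraries again lay below all controls, with a limma adjusted p of 0.362. Cd33, a sialic acid-binding lectin, averaged 13.8 ± 9.09 RPKM in dKO_Flt3ITD, 19.2 ± 12.4 in dKO and 27.5 ± 18.7 in control, and Cd209c, a C-type lectin, 13.8 ± 12 RPKM in dKO_Flt3ITD, 12.5 ± 5.62 in dKO and 7.75 ± 5.87 in control. The groups of both overlapped. Cd163, the scavenger receptor for haemoglobin, averaged 2.86 ± 1.65 RPKM in dKO_Flt3ITD, 7.69 ± 3.08 in dKO and 5.94 ± 2.02 in control (SD, n = 4), with an adjusted p of 0.591 for the mutant groups in limma. The fatty acid transporter gene Cd36 was below the filter and did not exceed 2.96 RPKM. Cd163l1, a scavenger receptor gene also below the filter, ranged from 0.0777 to 5.76 RPKM in dKO and did not exceed 0.0234 RPKM in dKO_Flt3ITD or 0.0232 in control.

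Of 5 costimulatory and inhibitory ligands 2 were tested and neither passed. Cd274, which encodes the checkpoint ligand PD-L1, had 13.2, 29.9, 39.0 and 14.3 RPKM in dKO_Flt3ITD, 6.75, 30.3, 21.3 and 17.2 RPKM in dKO, and 0.943, 6.07, 6.28 and 13.6 RPKM in control. Library control 4 overlapped both mutant groups. The log2 difference from control was 1.88 ± 0.60 (SE) in dKO_Flt3ITD, with a limma adjusted p of 0.159, and 1.52 ± 0.60 in dKO, with 0.405. Cd86, a ligand of CD28, had 9.05, 4.35, 11.3 and 7.33 RPKM in dKO_Flt3ITD, 41.9, 8.27, 22.4 and 24.5 RPKM in dKO, and 0.712, 6.11, 16.1 and 42.9 RPKM in control. The groups overlapped, and dKO_Flt3ITD against dKO had a limma adjusted p of 0.715. Cd40 and Cd83 were above 1 RPKM in 2 libraries each, and Cd200 in 3.

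Complement regulators and antigen presenting molecules gave no call. Cd59a and Cd59b, neighbouring and similar inhibitors of the membrane attack complex, are uncertain where reads could fall to either gene. Cd59a averaged 17.9 ± 13.3 RPKM in dKO_Flt3ITD, 15.4 ± 4.68 in dKO and 7.14 ± 5.47 in control, and Cd59b 1.59 ± 1.14 RPKM in dKO_Flt3ITD, 1.34 ± 0.737 in dKO and 0.730 ± 1.46 in control, where control 3 had 2.92 RPKM and the others were listed at 0. Cd55, which speeds the decay of complement convertases and binds CD97, had 0.174, 0.0637, 0.144 and 12.7 RPKM in dKO_Flt3ITD, 0.474, 1.74, 5.58 and 3.34 RPKM in dKO, and 0, 0.576, 0.0159 and 0.0137 RPKM in control. In dKO_Flt3ITD it was library 4 that stood high, and the other 3 lay within the range of control. Cd46, another complement regulator, was not tested and did not exceed 5.35 RPKM. Cd1d1 and Cd1d2 encode similar molecules that present lipids to NKT cells. They lie side by side on chromosome 3 and are uncertain in the same way. Cd1d1 averaged 28.4 ± 10.7 RPKM in dKO_Flt3ITD, 34.6 ± 13.8 in dKO and 33.3 ± 8.14 in control, with overlapping groups. Cd1d2 had 0.0885, 1.94, 0.0326 and 2.45 RPKM in dKO_Flt3ITD, 0, 4.80, 2.25 and 2.16 RPKM in dKO, and 0.623, 0.444, 0.0322 and 13.6 RPKM in control. Control 4 had its highest value, and the other 3 controls were under 1 RPKM. Among genes outside these roles, the vitamin B12 carrier receptor gene Cd320 averaged 9.90 ± 4.58 RPKM in dKO_Flt3ITD, 7.57 ± 3.73 in dKO and 19.3 ± 8.27 in control, and Cd99l2, an adhesion gene, 3.66 ± 2.10 RPKM in dKO_Flt3ITD, 3.5 ± 2.74 in dKO and 1.14 ± 1.19 in control. Cd248, a stromal antigen below the filter, ranged from 0.111 to 4.70 RPKM in dKO_Flt3ITD and 0.0234 to 0.608 in dKO. Each control was listed at 0 for it.

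Counting genes by overlap instead of by the test, 5 tested CD genes had no overlap between dKO_Flt3ITD and control, 2 higher and 3 lower, beside 7.67% of all tested genes, 4.16% higher and 3.51% lower. Between dKO and control 10 had none, 6 higher and 4 lower, beside 6.30% of all tested genes, 3.93% higher and 2.38% lower. The 6 higher ones were Cd97, Cd200r1, Cd81, Cd48, Cd53 and Cd200r4, and the 4 lower ones Cd160, Cd72, Cd300a and Cd302. Of these, Cd97 and Cd200r4 passed the filter through mutant values alone, and Cd160 through control values alone. Cd200r1 passed it mainly through mutant values, with 1 control at 1 RPKM or more. For such genes the filter itself favours groups that do not overlap, and the counts were not tested.

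By group, the CD transcripts read as follows. In dKO_Flt3ITD the leading genes were Cd48, Cd52, Cd53, Cd81 and Cd47, with Cd97 present, Cd160 at or near 0 and Cd24a at its lowest mean, 10.2 ± 9.82 RPKM (SD, n = 4). In dKO they were Cd48, Cd53, Cd81, Cd52 and Cd47, with Cd97 at 15.5 ± 3.5 and Cd200r1 at 39.8 ± 7.83 RPKM and Cd160 listed at 0. In control they were Cd48, Cd52, Cd53, Cd47 and Cd27, with Cd24a at 75.8 ± 37.6, Cd72 at 37.5 ± 12.7 and Cd160 at 17.9 ± 16.7 RPKM. Cd200r1 averaged 20.9 ± 22.2 RPKM in dKO_Flt3ITD as well, and 0.607 ± 0.899 in control. Cd24a averaged 23.0 ± 26.1 RPKM in dKO. Cd72 averaged 4.53 ± 1.14 RPKM in dKO_Flt3ITD and 4.83 ± 5.64 in dKO. No CD gene passed limma between the mutant groups. Among CD genes of at least 10 RPKM, the median coefficient of variation between libraries was 49.4% in dKO_Flt3ITD, 38.2% in dKO and 35.9% in control.

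CD antigens that carry other symbols were read from a separate list. Of 39 listed genes 36 were in the table and 32 tested, and 1 passed, higher in both comparisons with control. That gene was Procr, which encodes the endothelial protein C receptor, a marker of blood stem cells. It had 86.4, 138, 55.4 and 11.4 RPKM in dKO_Flt3ITD, 27.3, 46.7, 100 and 53.3 RPKM in dKO, and 0.539, 0.167, 0.426 and 11.3 RPKM in control. Control 4 was just below dKO_Flt3ITD 4, and the other 3 controls were far lower. Only control 4 reached 1 RPKM among the controls, so Procr passed the filter mainly through its mutant values. The limma adjusted p was 0.00440 in dKO_Flt3ITD and 0.00585 in dKO, and 0.202 and 0.347 in voom. In dKO_Flt3ITD against dKO none of the 32 passed, with Il3ra, the interleukin 3 receptor chain, at a limma adjusted p of 0.408.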

How the data were processed

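Each library holds full-length cDNA (SMARTer) from 100 sorted cells, per the labels' protocols. TopHat2 2.0.10, SAMtools 0.1.19, HTSeq 0.5.4p5 and the mouse build mm10 are named in the submitters' processing notes. The authors deposited RPKM, reads scaled to transcript length and library size, in 1 table of 13016 genes. The total they divided by is not given in the sources used here.

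A gene was tested if 4 or more of the 12 libraries had 1 RPKM or more, which left 10690. limma 3.58.1 (R 4.3.3) fitted log2(RPKM + 1) for all groups at once with a mean-variance trend and 9 residual degrees of freedom. P-values were adjusted by Benjamini-Hochberg over all tested genes and called under 0.05. Differences on this scale understate the change of low genes. The fit was also tested on simulated data with known changes, and recovery of the smallest of these was low. A gene that did not pass may therefore still differ.

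The steps between low RPKM values gave whole reads, taken as the smallest whole numbers (tolerance 0.001, met by 100% of genes), and voom was run on these. For genes seen in few libraries, such as Cd160, these numbers can be too small by a common factor, which changes the weight voom gives them. Such reads are PCR copies and not independent molecules. Replicates were not copies of each other, since a chi-square of their reads was 118 to 644 per degree of freedom. Mean correlations of a library with the others ran from 0.786 for control 1 to 0.863.

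The members, the role and marker lists and the tests were chosen with earlier results of these data known. The rule for genes described singly took called genes, up to 8 genes of smallest p per comparison, the 5 highest per group, those with no overlap between a mutant group and control at 5 RPKM or more, and gate genes such as Cd44, Cd24a, Cd4 and Cd8a. Not every gene that the rule took is reported here. Some of these are given as mean ± SD, and the remaining genes as means or ranges. Alternatives were other pseudocounts, filters and scalings, no trend, only the 8 libraries compared, a replicate term, voom, and leaving out libraries. Leaving out dKO_Flt3ITD 1 and 4 together was added after seeing the data. Gene positions are from GENCODE M21 (GRCm38, equivalent to mm10), which placed all 57 genes. Python 3.11.15, numpy 2.4.6, pandas 2.3.3 and matplotlib 3.10.9 were used for the rest.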

Additional observations from a re-analysis of the deposited data

Results flagged for a closer look

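For 65 combinations of a CD gene and a group of 4 libraries, the highest and lowest library were compared with the rest by Dixon's ratio of the gap to the range, at its 95% critical value. Chance alone gives about 5% of such groups. The check marked 6. In dKO_Flt3ITD 4, Cd160 stood at 0.327 RPKM, with the other 3 libraries of the group listed at 0, so that any value above 0 would have been marked. In the same library Cd200r4 stood at 96.1 RPKM, with the others at 14.6 RPKM or less. In dKO 1, Cd24a stood at 61.8 RPKM against 5.0 to 13.9 RPKM in the other dKO libraries. In dKO 1 also, Cd48 stood at 5335 RPKM and Cd52 at 857 RPKM, above 2889 and 378 RPKM, the next highest. In control 4, Cd48 stood at 2377 RPKM, above 1343 RPKM in the next highest control.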

How the results depend on the processing

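In dKO_Flt3ITD against control 3 CD genes passed, and 2 to 4 when single libraries were left out. Scaling to the same summed RPKM gave 5, adding Cd27 and Cd72, and voom gave 0. In dKO against control 5 passed, and 3 to 5 when single libraries were left out. Voom gave 0, and leaving out the libraries numbered 1 of all 3 groups together gave 2, Cd160 and Cd97. The cause of these changes was not tested, beyond the smaller number of libraries where some were left out. In dKO_Flt3ITD against dKO each alternative gave 0. For the 27 differences of single CD genes, 538 alternatives were computed: 501 stayed on the same side of the threshold, 30 lost a call, 7 gained one and 0 changed sign. Most of the 27 differences had no call in the main fit, among them all those of dKO_Flt3ITD against dKO. For these, staying on the same side says little. The 30 losses all fell on the called differences, so the 501 does not measure how stable the calls were.

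Replicate numbers did not pair the libraries: 2 of 12 correlations of same-numbered libraries exceeded 0.1, with a range from −0.147 to 0.126. In 4 of these 12 pairs, the library of the first group correlated best with the same number in the second group. With a replicate block, 2 CD genes passed in dKO_Flt3ITD against control, 5 in dKO against control and 0 in dKO_Flt3ITD against dKO. Cd24a had an adjusted p of 0.0653 with the block.

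Values at or near 0, as for Cd160, Cd6 and the Cd200r genes, are limited by depth and by 100 cells per library, and 4 libraries per group limit what can be called.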
